A study of Homo sapiens with 9 samples.

Results

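The autophagy machinery genes are 36 genes whose products build, load and close the autophagosome, the membrane vesicle that carries cytoplasm to the lysosome. They were taken as every probe of the deposited non-normalized table whose platform gene symbol was one of the 36 names, which gave 56 of the 47310 probes of the array. Of these, 45 probes for 34 genes were kept, because their detection p-value, which sets a probe against that array's negative controls, was under 0.05 on at least 3 arrays. The series holds bead array profiles of HEK293T cells, a human embryonic kidney line, in 3 groups of 3 arrays each. The cells carried an empty plasmid, the pRK5 vector encoding wild-type BPIFB4 (WT-BPIFB4), or the same vector encoding the longevity-associated variant (LAV-BPIFB4), and all were transfected with Lipofectamine 2000 and serum-starved for 18 hours, starting 24 hours after transfection. The 3 samples of a group are labelled as replicates, and nothing says that they came from separate cultures. The p-values below therefore rest on a spread between samples of a group that may be technical. This spread was pooled over the 3 groups and drawn toward its trend with intensity over all kept probes.

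In autophagy a kinase complex around ULK1 is switched on when growth factors or nutrients run short, and a lipid kinase complex around PIK3C3 then marks the forming membrane with PI3P. Conjugation enzymes attach the ubiquitin-like proteins of the LC3 and GABARAP families to that membrane, where cargo receptors such as SQSTM1 bind them. Serum withdrawal is a common way to raise autophagy in cultured cells, and here the control cells were starved too.

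Before the results, 3 properties of the arrays matter. The median signal per array was 93.1 to 139 and between 18940 and 20658 probes were detected on each array. The 9 arrays lay on 1 chip with each group in adjacent places, so a group's effect and its chip position cannot be told apart. On the first principal component (31.8% of the variance) the empty vector arrays lay between -32.1 and -29.8, apart from all others. WT-BPIFB4 replicates 1, 2 and 3 lay at -12.3, 9.67 and 29.3, while LAV-BPIFB4 arrays lay between 19.7 and 25.2. The values deposited in the series value table are linearly related to the non-normalized table for the empty vector and WT-BPIFB4 arrays. For the 3 LAV-BPIFB4 samples they match none of the 9 arrays (highest correlation 0.992 to 0.994). That table is used below only as 1 of the 20 alternatives to the reported processing, and ranges over these alternatives include its LAV-BPIFB4 values. The single BPIFB4 probe was detected on 0 arrays, and whether it lies in the transfected sequence is not known. Of 9 markers of HEK293 cells 8 had a probe and 6 were measured (EYA1, KRT8, KRT18, VIM, NEFL and NEFM), with PAX2 and LHX1 not kept. VIM, an intermediate filament gene, was called lower with both BPIFB4 forms (log2 change -0.53 and -0.62) and EYA1, a kidney progenitor gene, lower with LAV-BPIFB4 (-1.04). All 6 endothelial markers were at background on all 9 arrays, and of the blood cell and fibroblast markers CD14, COL1A1 and COL3A1 were measured, with none called. The summed signal of the blood cell list was 890 to 1185 on the empty vector arrays, 1016 to 1266 with WT-BPIFB4 and 1122 to 1363 with LAV-BPIFB4, and that of the fibroblast list 994 to 1202, 1047 to 1418 and 1169 to 1396. The undetected endothelial list ran the same way in these non-normalized sums, at 575 to 741, 644 to 833 and 754 to 838, and the HEK293 list gave 10444 to 18471, 10031 to 16474 and 12996 to 16227. The part of other cells in the results was not tested.

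With LAV-BPIFB4, 4 of the 34 measured autophagy genes passed the test against the empty vector, at a limma adjusted p under 0.05 over all 20914 kept probes. ATG4B, the main protease that trims LC3 and GABARAP proteins, and ATG101, a subunit of the ULK1 complex, rose. ATG5, which is joined to ATG12 to form the enzyme that places LC3 on membranes, and RB1CC1, the large scaffold of the ULK1 complex also called FIP200, fell. The 4 are 11.8% of the measured genes of the list, where 9.01% of all 11830 measured genes were called, 3.98% as higher and 5.03% as lower. No member was called with WT-BPIFB4, where 1.30% of all genes were (0.803% as higher and 0.499% as lower), and none for LAV-BPIFB4 against WT-BPIFB4, where 0.00% were. By limma without adjustment, 5 members had a p under 0.05 with WT-BPIFB4, all higher, beside 17.2% of all genes (971 genes higher and 1059 lower). With LAV-BPIFB4 there were 9, 3 higher and 6 lower, beside 26.9% (1466 genes higher and 1712 lower). Between the 2 forms there were 2, all lower with LAV-BPIFB4, beside 3.80% (206 genes higher and 243 lower). An F-test over the 3 groups called 1 member, ATG4B (adjusted p = 0.0332), beside 4.57% of all genes, and 7 members had an unadjusted p under 0.05 in it, beside 21.1%.

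Relative to the empty vector, 14 members had a positive and 20 a negative log2 change with WT-BPIFB4, and 14 and 20 with LAV-BPIFB4. The median log2 change was -0.034 with WT-BPIFB4 and -0.11 with LAV-BPIFB4, beside 0.0059 and -0.0022 over all measured genes. Over the 20 alternatives the members' median ran from -0.089 to 0.0092 with WT-BPIFB4 and from -0.11 to 0.012 with LAV-BPIFB4, so its sign was not settled, and without LAV-BPIFB4 replicate 1 it was -0.024. For LAV-BPIFB4 against WT-BPIFB4 it was -0.057, beside -0.012, and 0.10 with median scaling. The 0.012 with LAV-BPIFB4 also came from median scaling, which raised the median of all genes in both of these comparisons. Under that setting the members' median stayed below that of all genes, with the values given in the last section. The median size of the change, without its sign, was 0.16 and 0.25, beside 0.19 and 0.24 over all genes. The 2 comparisons use the same 3 empty vector arrays, so their signs are not independent of each other. Members varied between replicate arrays by a median SD of 0.21 on the log2 scale, beside 0.22 over all measured genes.

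**Figure D1:**
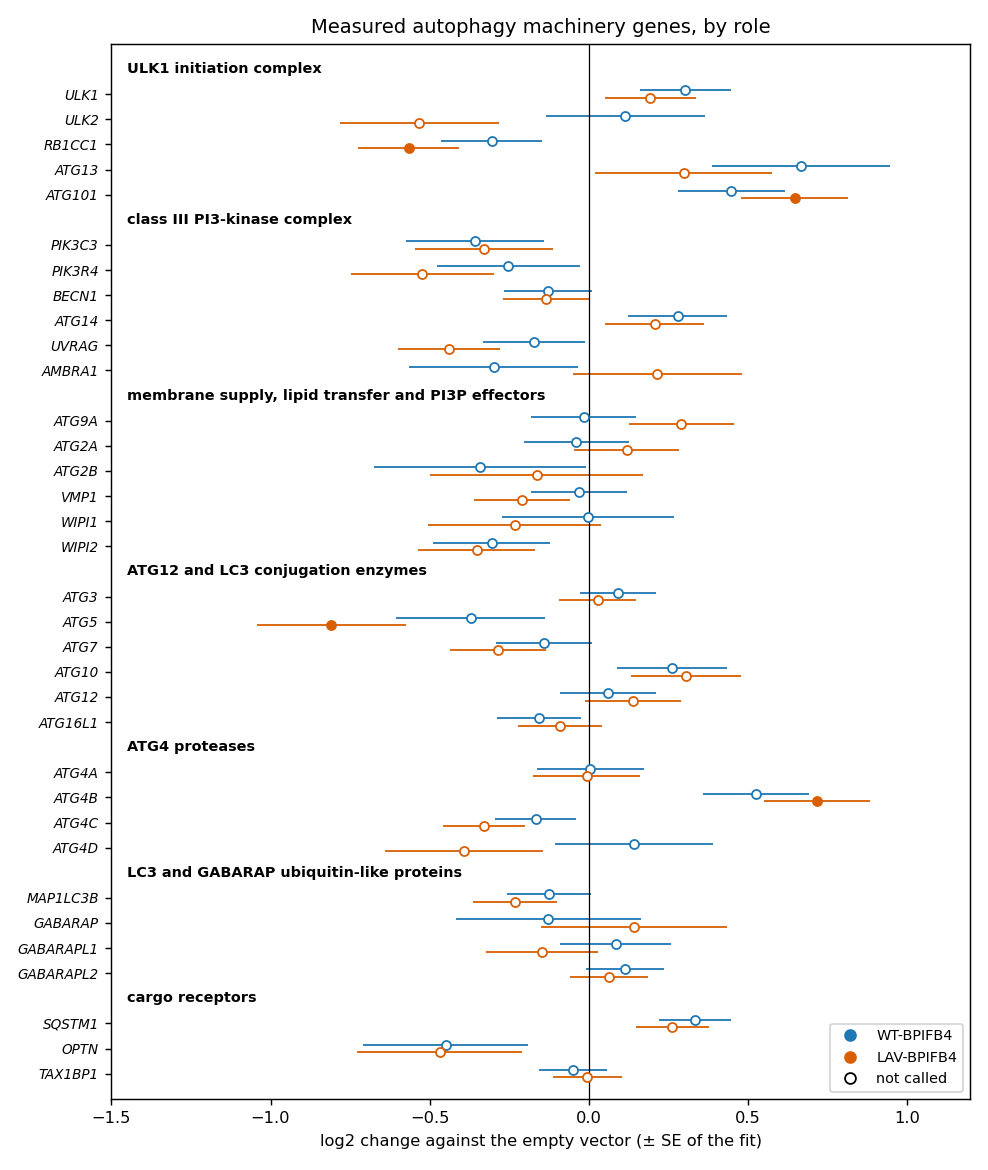
Log2 change against the empty vector (horizontal axis, with the standard error of the fit as bars) of the 34 measured members, grouped by role, for WT-BPIFB4 (blue) and LAV-BPIFB4 (orange). Filled points passed the test: RB1CC1, ATG101, ATG5 and ATG4B with LAV-BPIFB4, and none with WT-BPIFB4.

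The initiation complex held 2 of the 4 called genes, and they moved in opposite directions. ATG101 (probe ILMN_1772527) read 8.83, 8.40 and 8.70 (log2 intensity) on the empty vector arrays, 9.11, 8.77 and 9.40 on the WT-BPIFB4 arrays and 9.41, 9.13 and 9.33 on the LAV-BPIFB4 arrays. All 3 LAV-BPIFB4 arrays lay above all empty vector arrays, while WT-BPIFB4 overlapped both groups. The mean rose from 8.64 ± 0.22 (SD, n = 3) to 9.29 ± 0.14 with LAV-BPIFB4, a 1.57-fold rise (log2 change 0.65, SE 0.17, limma adjusted p = 0.0233). With WT-BPIFB4 the log2 change was 0.45 (SE 0.17, limma adjusted p = 0.195).

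RB1CC1 (ILMN_1736796) read 10.35, 10.54 and 10.17 with the empty vector, 10.40, 10.11 and 9.64 with WT-BPIFB4 and 9.86, 9.83 and 9.68 with LAV-BPIFB4. LAV-BPIFB4 lay below every empty vector array, and WT-BPIFB4 replicate 1 was among the empty vector values while replicate 3 was below all LAV-BPIFB4 values. The fall with LAV-BPIFB4 was 1.48-fold (log2 change -0.57, SE 0.16, limma adjusted p = 0.0339), and the WT-BPIFB4 difference was -0.30 (adjusted p = 0.366). The other 3 subunits gave no call. ULK1 and ULK2 are the kinases and ATG13 links them to the scaffold. ULK1 differed by 0.30 with WT-BPIFB4 and 0.19 with LAV-BPIFB4, and its other kept probe by 0.34 and 0.27. ATG13 differed by 0.67 and 0.30 and was detected on 7 of 9 arrays. These 3 genes were named after their values were seen, as were ATG3, ATG7, ATG12, ATG16L1, ATG4A, ATG4C, BECN1, PIK3R4, ATG2B, WIPI1, GABARAP, GABARAPL1, GABARAPL2, OPTN and TAX1BP1 below. ULK2 differed from the empty vector arrays, at 6.30, 5.97 and 6.32, by 0.12 with WT-BPIFB4 and -0.53 with LAV-BPIFB4 (limma adjusted p = 0.868 and 0.198). It was also one of the 2 members with an unadjusted p under 0.05 between the forms. It read 6.59, 6.11 and 6.24 with WT-BPIFB4 and 5.99, 5.37 and 5.64 with LAV-BPIFB4, without overlap, as for 9.09% of all genes (log2 change -0.65, SE 0.25, limma adjusted p = 0.972). Although detected on all 9 arrays, ULK2 had a low signal, 124 to 190 before normalization, where the array medians were 93.1 to 139.

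The conjugation enzymes held the largest fall of the measured members. ATG5 (ILMN_1718265) read 7.54, 7.77 and 7.41 with the empty vector, 7.47, 6.87 and 7.26 with WT-BPIFB4 and 6.24, 7.02 and 7.04 with LAV-BPIFB4. LAV-BPIFB4 replicate 1 was lowest by far, and the other two lay below the empty vector range and inside that of WT-BPIFB4. The fall was 1.75-fold (log2 change -0.81, SE 0.23, limma adjusted p = 0.0386), and WT-BPIFB4 differed by -0.37 (adjusted p = 0.473). Without LAV-BPIFB4 replicate 1 the log2 change was -0.55 (adjusted p = 0.203), and without background correction it was -0.49 (adjusted p = 0.0331). The partners of ATG5 gave no call. ATG12 had a log2 change of 0.14 with LAV-BPIFB4, and its other kept probe one of 0.42, with all LAV-BPIFB4 arrays above the empty vector arrays (limma adjusted p = 0.284). ATG16L1, which brings the ATG12-ATG5 enzyme to the membrane, had one of -0.089, ATG7, the activating enzyme, one of -0.29, and ATG3, the LC3-carrying enzyme, one of 0.028. ATG10, which carries ATG12 to ATG5, had 2 kept probes that differed by 0.31 and -0.24, so its direction was not settled.

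Among the ATG4 proteases ATG4B stood out by its call. Its kept probe (ILMN_2411915) read 8.38, 8.47 and 8.49 with the empty vector, 8.82, 8.80 and 9.30 with WT-BPIFB4 and 9.18, 8.91 and 9.41 with LAV-BPIFB4. All 6 BPIFB4 arrays lay above all 3 empty vector arrays, and the 2 BPIFB4 groups overlapped. The mean was 8.45 ± 0.06 (SD, n = 3) with the empty vector and 9.17 ± 0.25 with LAV-BPIFB4, a 1.65-fold rise (log2 change 0.72, SE 0.17, limma adjusted p = 0.0126). With WT-BPIFB4 the log2 change was 0.53 (SE 0.17, adjusted p = 0.127), and without WT-BPIFB4 replicate 1 the rise with WT-BPIFB4 passed the test. The second ATG4B probe was detected on no array. ATG4A differed by 0.0052 and -0.0067, ATG4C by -0.17 and -0.33. ATG4D was the other member with an unadjusted p under 0.05 between the forms (-0.53, limma adjusted p = 0.972). Its other kept probe went the opposite way in that comparison (0.21), so its direction was not settled. With LAV-BPIFB4 against the empty vector the kept probes of ATG4D differed by -0.39 and 0.21.

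**Figure D2:**
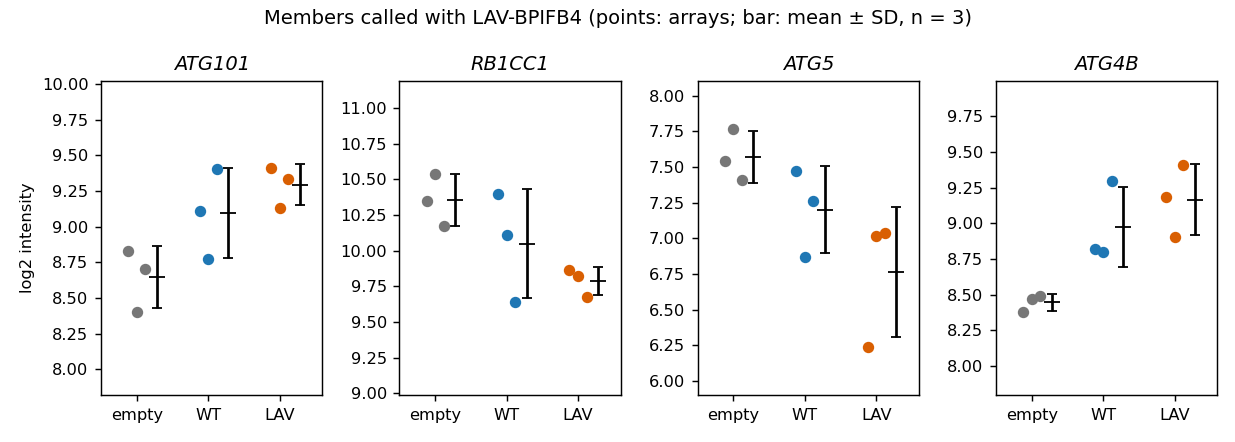
Log2 intensity (vertical axis, spanning the same width in each panel) of the 4 called members on each array, by group, with the mean and SD (n = 3) beside the points. The LAV-BPIFB4 arrays lie outside the range of the empty vector arrays in each panel, with ATG5 replicate 1 at 6.24, and WT-BPIFB4 arrays overlap LAV-BPIFB4 arrays in all 4.

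The 4 calls depended on the processing and on single arrays. None of the 4 was called with median scaling of the arrays in place of quantile normalization (limma adjusted p = 0.201 for ATG101, 0.164 for ATG4B, 0.255 for ATG5 and 0.535 for RB1CC1) or without the intensity trend in the variance, and none without LAV-BPIFB4 replicate 1 or LAV-BPIFB4 replicate 3. The direction of each was the same in all 20 alternatives. The call of ATG4B was lost in 4 of the 20, that of ATG101 in 6, that of RB1CC1 in 9 and that of ATG5 in 10. ATG101 was not called without empty vector replicate 2 or 3 either, RB1CC1 without empty vector replicate 1 or 2 or LAV-BPIFB4 replicate 2, and ATG5 without any one of the empty vector or LAV-BPIFB4 arrays. With the value table, whose LAV-BPIFB4 samples are other values, the log2 changes were 0.54 for ATG101 and 0.53 for ATG4B, both called, and -0.37 for ATG5 and -0.35 for RB1CC1, neither called.

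**Figure D3:**
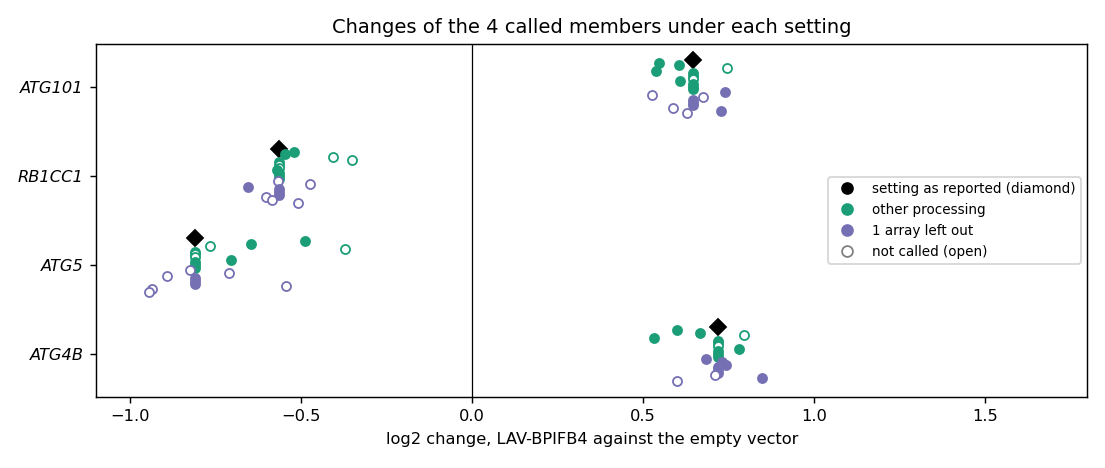
Log2 change with LAV-BPIFB4 against the empty vector (horizontal axis) of the 4 called members under the reported setting (black diamond), other processing (green) and with 1 array left out (purple). Open points were not called, and no point crosses 0.

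The sequences before the start sites of 3 of the 4 called genes are printed, of which ATG101 and ATG4B rose and ATG5 fell. That of RB1CC1, the other called gene, which fell, is not printed. ATG3, which did not pass the test, is printed as the one member whose window holds the palindrome TCACGTGA, the core of the element that TFEB, a regulator of lysosome and autophagy genes, is known to bind. The windows are RefSeq's for GRCh38.p14, from 250 bases before to 50 after an annotated start, on the strand of the gene. For ATG5, which has 2 listed starts, the one farther upstream is shown. Capitals mark the motifs searched, on both strands: CACGTG, TCACGTGA (which contains CACGTG), and TTCNNGAA and GAANNTTC, paired units of the heat shock element.
ATG101, chr12:52069728-52070027, plus strand: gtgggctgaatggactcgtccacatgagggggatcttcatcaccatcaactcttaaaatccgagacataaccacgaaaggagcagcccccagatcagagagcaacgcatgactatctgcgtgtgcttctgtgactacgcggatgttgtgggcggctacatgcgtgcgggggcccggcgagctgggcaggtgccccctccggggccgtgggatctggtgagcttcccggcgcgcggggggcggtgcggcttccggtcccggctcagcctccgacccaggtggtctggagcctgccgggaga
ATG4B, chr2:241637443-241637742, plus strand: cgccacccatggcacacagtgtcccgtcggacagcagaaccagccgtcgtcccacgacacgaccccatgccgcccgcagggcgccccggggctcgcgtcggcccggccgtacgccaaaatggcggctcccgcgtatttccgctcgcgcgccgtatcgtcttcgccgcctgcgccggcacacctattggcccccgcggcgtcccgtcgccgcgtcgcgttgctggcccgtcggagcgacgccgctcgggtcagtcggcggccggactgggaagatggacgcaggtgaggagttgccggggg
ATG5, chr6:106325388-106325687, minus strand: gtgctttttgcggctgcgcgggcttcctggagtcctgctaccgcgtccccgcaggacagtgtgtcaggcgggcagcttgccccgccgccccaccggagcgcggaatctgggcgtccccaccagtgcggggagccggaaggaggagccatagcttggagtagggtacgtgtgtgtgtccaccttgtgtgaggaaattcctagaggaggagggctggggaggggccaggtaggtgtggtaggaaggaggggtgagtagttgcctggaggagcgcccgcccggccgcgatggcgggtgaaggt
ATG3, chr3:112561913-112562212, minus strand: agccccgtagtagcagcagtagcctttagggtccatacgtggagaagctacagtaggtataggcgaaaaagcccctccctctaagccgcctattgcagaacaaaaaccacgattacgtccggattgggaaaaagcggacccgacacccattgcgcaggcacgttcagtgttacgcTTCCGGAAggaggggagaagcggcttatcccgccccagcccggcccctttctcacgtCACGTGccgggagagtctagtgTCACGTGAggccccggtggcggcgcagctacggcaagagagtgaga
No capitals occur in the first 3. In the ATG3 window TCACGTGA begins at base 255 counted from its 5′ end, a second CACGTG at base 233 and TTCNNGAA at base 176. Of the 36 members 32 had at least 1 window, 40 windows in all, and 35 of these held none of the 4 motifs. CACGTG was in 2 of the 40 (ATG3 and ATG14), beside 7.26% of all 35116 windows, TCACGTGA in 1, beside 0.980%, TTCNNGAA in 2 (ATG3 and PIK3R4), beside 7.74%, and GAANNTTC in 2 (GABARAPL2 and TAX1BP1), beside 6.77%. A match says only that these letters are present.

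The lipid kinase complex had no call. It makes PI3P, with PIK3C3 as the kinase, PIK3R4 as its regulatory subunit and BECN1 as the core to which ATG14 or UVRAG bind. Of its 6 genes, 5 had a negative log2 change with WT-BPIFB4 and 4 with LAV-BPIFB4, from -0.36 to 0.28 and from -0.52 to 0.22. UVRAG had the smallest p of the complex. It read 8.36, 8.19 and 8.36 with the empty vector, 8.20, 8.07 and 8.12 with WT-BPIFB4 and 7.79, 7.78 and 8.01 with LAV-BPIFB4. Its LAV-BPIFB4 arrays lay below all others, without passing the test (log2 change -0.44, SE 0.16, limma adjusted p = 0.0952), and its other kept probe differed by -0.11. PIK3R4 read 7.70, 7.69 and 7.78 with LAV-BPIFB4, below the empty vector arrays at 8.49, 8.21 and 8.04 (log2 change -0.52, limma adjusted p = 0.159), and passed the test with only the 2 groups in the fit or without WT-BPIFB4 replicate 1. BECN1 differed by -0.13 with each form.

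The genes that supply and shape the membrane gave no call and small differences. ATG9A, a lipid scramblase carried on vesicles, ATG2A and ATG2B, lipid transfer proteins, VMP1, an endoplasmic reticulum scramblase, and the PI3P readers WIPI1 and WIPI2 ranged from -0.34 to -0.0015 with WT-BPIFB4 and from -0.35 to 0.29 with LAV-BPIFB4. The 2 ends of the WT-BPIFB4 range were ATG2B, detected on 4 of 9 arrays, and WIPI1, detected on 7 of 9. WIPI2, with the smallest p of the group, read 7.79, 7.66 and 7.90 with the empty vector, 7.52, 7.47 and 7.44 with WT-BPIFB4 and 7.34, 7.25 and 7.69 with LAV-BPIFB4. WT-BPIFB4 lay below the empty vector without overlap, as did 8.99% of all genes, and LAV-BPIFB4 overlapped both (limma adjusted p = 0.443 and 0.250).

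The ubiquitin-like proteins and the cargo receptors gave no call either. MAP1LC3B, the LC3 gene most used as a marker of autophagosomes, read 9.92, 9.71 and 9.98 with the empty vector, 9.88, 9.79 and 9.57 with WT-BPIFB4 and 9.71, 9.62 and 9.59 with LAV-BPIFB4 (log2 change -0.23, limma adjusted p = 0.298). The LAV-BPIFB4 arrays lay just below the empty vector arrays, and WT-BPIFB4 spanned both. GABARAP, GABARAPL1 and GABARAPL2 differed by 0.14, -0.15 and 0.065 with LAV-BPIFB4, and the other kept probe of GABARAPL2 by -0.23. The 3 probes of MAP1LC3A, another LC3 gene, were at background except on 1 WT-BPIFB4 array for 1 probe, and the 2 probes of NBR1, a cargo receptor, except on 1 empty vector array for 1 probe, so neither gene was measured.

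SQSTM1, the receptor also called p62, read 11.35, 11.63 and 11.55 with the empty vector, 11.94, 11.67 and 11.93 with WT-BPIFB4 and 11.78, 11.68 and 11.87 with LAV-BPIFB4. All 6 BPIFB4 arrays lay above the empty vector arrays, by a log2 change of 0.33 (SE 0.11) and 0.26 (SE 0.11), and neither difference passed the test (limma adjusted p = 0.154 and 0.163). With array weights the rise with LAV-BPIFB4 passed it (adjusted p = 0.0467). OPTN, a receptor for mitochondria and bacteria, differed by -0.45 and -0.47, and TAX1BP1 by -0.049 and -0.0047, with its other kept probe at -0.14 and -0.22.

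Groups without overlap were about as common among members as among all genes. With LAV-BPIFB4, 13 of 34 members (38.2%) had no overlap with the empty vector, 5 higher and 8 lower, beside 34.0% of all measured genes (15.9% higher and 18.1% lower). With WT-BPIFB4 it was 6 of 34 (17.6%), 3 higher and 3 lower, beside 17.9% of all genes (8.90% higher and 8.99% lower). Between the forms it was 3 of 34 (8.82%), all lower with LAV-BPIFB4, beside 9.09% (4.24% higher and 4.84% lower).

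For 11 members 2 kept probes read the same gene. Their log2 changes with LAV-BPIFB4 had the same sign for 7 of the 11 and differed by a median of 0.21. ATG4D (0.60) and ATG10 (0.54) differed by over 0.5. None of the 4 called members had a second kept probe, so their changes rest on 1 probe each.

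**Figure D4:**
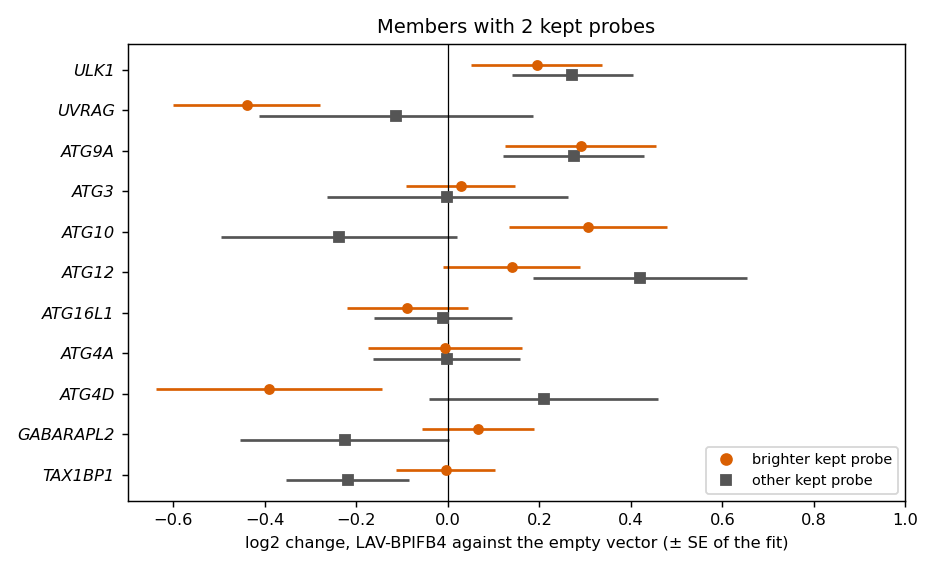
Log2 change with LAV-BPIFB4 against the empty vector (horizontal axis, with the standard error of the fit as bars) of the 11 members with 2 kept probes, the probe with the higher mean (orange circles) and the other one (grey squares). The pairs of ATG3, ATG10, ATG4D and GABARAPL2 lie on opposite sides of 0.

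Of 67 other autophagy-related genes in 4 lists, 60 were measured, and 6 of them passed the test with LAV-BPIFB4, all lower. This is 10% of the 60, beside 9.01% of all genes called in either direction and 5.03% called as lower. None was called with WT-BPIFB4 or between the forms. By limma without adjustment, 9 had a p under 0.05 with WT-BPIFB4, all lower, beside 17.2% of all 11830 genes (971 genes higher and 1059 lower). With LAV-BPIFB4 there were 16, 3 higher and 13 lower, beside 26.9% of all genes (1466 genes higher and 1712 lower). Between the forms there were 0, beside 3.80%. The 6 were TP53INP1, which binds LC3 and is a p53 target, BNIP3L, a receptor for mitochondria, SEC62, a receptor for endoplasmic reticulum, FOXO1, a transcription factor, MTOR, the kinase that restrains ULK1, and TBK1, a kinase that acts on cargo receptors. TP53INP1 had the smallest p. It read 8.25, 8.31 and 7.99 with the empty vector, 7.73, 7.57 and 7.59 with WT-BPIFB4 and 7.51, 7.14 and 7.17 with LAV-BPIFB4. The 3 groups did not overlap, and it fell 1.88-fold with LAV-BPIFB4 (log2 change -0.91, SE 0.18, limma adjusted p = 0.00511), as did its other kept probe (-1.26).

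MTOR read 10.06, 9.79 and 10.13 with the empty vector and 9.58, 9.28 and 9.64 with LAV-BPIFB4, a 1.41-fold fall without overlap (limma adjusted p = 0.0382). SEC62, FOXO1 and TBK1 fell 1.51-fold, 1.52-fold and 1.51-fold, without overlap (limma adjusted p = 0.0355, 0.0470 and 0.0371). BNIP3L fell 1.73-fold (limma adjusted p = 0.0424), although its groups overlapped and its other kept probe differed by -0.23. The 13 measured genes of lysosome fusion, such as the SNARE gene STX17, gave no call (median log2 change 0.00087 with LAV-BPIFB4). Of the 16 other receptors 2 were called (12.5%), of the 15 upstream kinases and factors 2 (13.3%) and of the 16 other core genes 2 (12.5%). All of these were lower, beside 9.01% of all genes called in either direction and 5.03% called as lower. TFEB itself was at background on all 9 arrays. The call of TP53INP1 was lost in 1 of 20 alternatives, median scaling. Those of BNIP3L and MTOR were lost in 9, and those of SEC62, FOXO1 and TBK1 in 10, among them median scaling, the value table and the fits without LAV-BPIFB4 replicate 1 or 3.

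**Figure D5:**
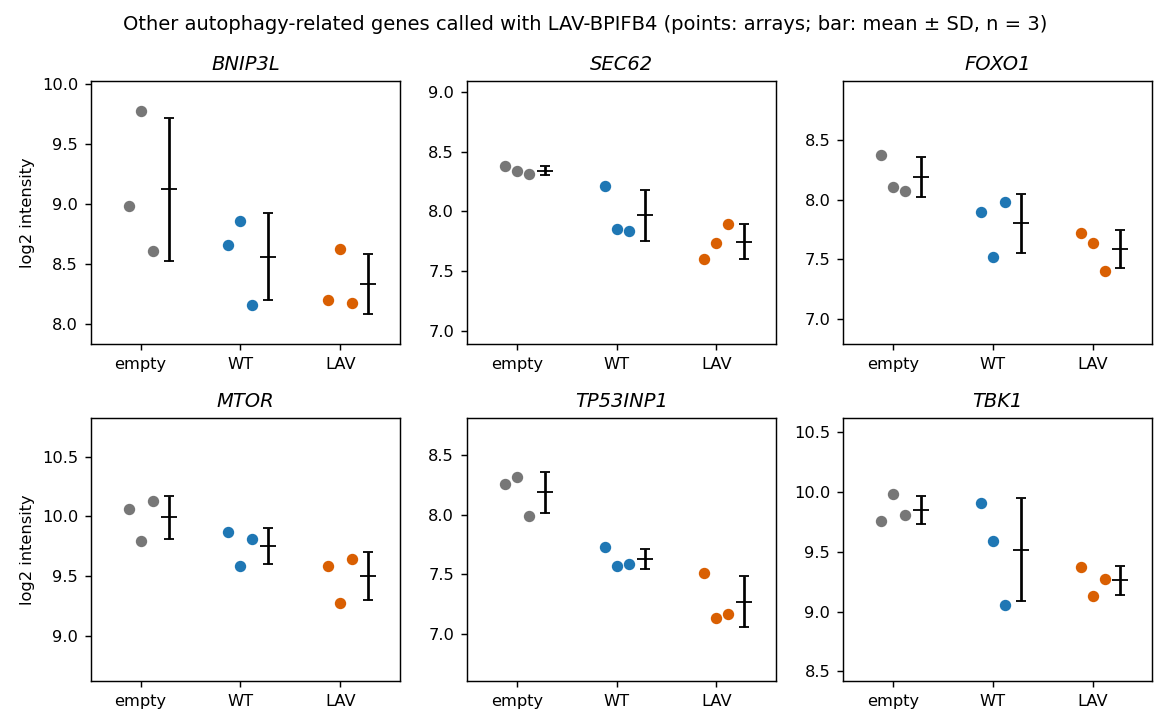
Log2 intensity (vertical axis, spanning the same width in each panel) on each array, by group, of the 6 other autophagy-related genes called with LAV-BPIFB4, with the mean and SD (n = 3) beside the points. LAV-BPIFB4 arrays lie below the empty vector arrays in 5 panels and overlap them for BNIP3L.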

How the data were processed

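Total RNA of 9 HEK293T samples was read on Illumina bead arrays, 3 per group on 1 chip. The deposited non-normalized table holds the signal intensity per probe as the authors exported it, with a detection p-value per probe that the authors deposited beside it. BeadStudio is named in the submitters' processing notes, with no version. The authors also deposited a series value table of intensities on a linear scale, which served as an alternative after a log2 transformation. How its values were made is not given in the sources used here. Intensities were background-corrected, quantile-normalized and log2-transformed by the neqc function (R 4.3.3, limma 3.58.1; offset 16, negative controls inferred from the detection p-values). Probes with a detection p under 0.05 on at least 3 arrays were kept, 20914 of 47310. The 3 groups were fitted together with limma (intensity trend), and p-values were adjusted by Benjamini-Hochberg over all kept probes. A gene was read from its kept probe with the highest mean. Probes were named from the platform annotation: 30105 had 1 symbol, 8 several and 17197 none. The fit and its test were tried on simulated log2 values with independent noise for each probe. That simulation did not cover the normalization or the chip position. Genes were named if called, if they had the smallest p of their role, if not measured, or if their probes differed by over 0.5 or in their call, with up to 6 called genes per direction from the 4 other lists. Members named outside this rule are listed as such in the report. The members and lists were chosen with earlier results of these data known. The number of arrays limits the precision.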

Additional observations from a re-analysis of the deposited data

How the results depend on the processing

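All 20 alternatives kept the count of members called between LAV-BPIFB4 and WT-BPIFB4 at 0. With LAV-BPIFB4 against the empty vector, 4 members were called, but 0 with median scaling, 0 without the intensity trend, 2 with the value table and 2 without the filter on detection (ATG101 and ATG4B both times), 5 with array weights (SQSTM1 added), 5 with only the 2 groups compared (PIK3R4 added), and 0 to 5 when 1 array was left out (0 without LAV-BPIFB4 replicate 1 or 3, 5 without WT-BPIFB4 replicate 1). With WT-BPIFB4, 0 were called, 1 with a replicate block (ATG4B) and 0 to 1 when 1 array was left out. The F-test called 1 member, 0 with median scaling, the value table, no filter or no intensity trend, 3 with array weights, 3 with the replicate block and 0 to 3 when 1 array was left out. The median log2 change of members with LAV-BPIFB4 was -0.067 without background correction, 0.012 with median scaling, -0.010 with the value table, -0.048 with detection p under 0.01 on all 9 arrays, -0.048 without the filter and -0.11 to -0.024 when 1 array was left out. With WT-BPIFB4 it was -0.089 with median scaling, 0.0092 with the value table and -0.078 to -0.012 when 1 array was left out, and between the forms 0.10 under median scaling and -0.021 from the value table. Median scaling put the median of all genes at -0.031 with WT-BPIFB4, 0.088 with LAV-BPIFB4 and 0.13 between the forms, so the members' medians relative to all genes stayed at or below 0. The cause of these changes was not tested.

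Over all genes, the 1066 calls with LAV-BPIFB4 became 150 with median scaling, 597 with the value table, 610 without the filter, 128 without the intensity trend, 1977 with array weights, 1605 with only the 2 groups compared, 1828 with the replicate block and 339 to 1704 when 1 array was left out. The 154 with WT-BPIFB4 became 32 with median scaling, 66 without the filter, 23 without the trend, 729 with weights, 57 with only the 2 groups, 537 with the block and 45 to 1057 when 1 array was left out. The 0 between the forms became 1 with median scaling, 1 with weights and 5 with the block, and the 541 of the F-test 108 with median scaling, 340 with the value table, 307 without the filter, 37 without the trend, 1476 with weights, 1246 with the block and 165 to 1408 when 1 array was left out. Same-numbered arrays correlated in their deviations from the group means by 0.071 to 0.22 (WT-BPIFB4 with empty vector), 0.0011 to 0.17 (LAV-BPIFB4 with empty vector) and 0.013 to 0.14 (between the forms), with the own number highest for 3, 2 and 2 of 3. All were positive but some were near 0, and no label says what a number marks, so the arrays were not treated as paired. With the replicate block 4 members were called with LAV-BPIFB4.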
